A study of Mus musculus with 2 samples.

Results

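The 7 genes described here are Il5, Areg, Calca, Ramp3, Gata3, Rora and Hlf, of 13774 genes in the deposited count table. They were selected on their UMI counts in lymphocytes, and several are genes of type 2 innate lymphoid cells (ILC2s) or of signalling by calcitonin gene-related peptide (CGRP). The choice used the counts of these same cells, so their levels and joint presence are a description and were not tested. Lymphocytes were cells with no Cd79a count and no C1qa, C1qb or C1qc count. In them counts of T, NK and innate lymphoid genes, Cd3d, Cd3e and Cd3g among them, outnumbered those of every other cell type. This gave 63 of 997 tumor cells and 637 of 1794 normal gland cells.

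ILC2s are tissue lymphocytes without a T cell receptor that make IL-5 and amphiregulin after alarmin signals, and they depend on the transcription factors GATA3 and RORα. CGRP, made from Calca, acts through the receptor CALCRL paired with RAMP1, and in mouse lung and gut it is known to tune ILC2 cytokine output. T helper 2 cells and tissue-resident T cells share much of this program, and the subunits of the CD3 complex are the usual marks that set T cells apart from ILC2s.

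Each of the 2 libraries was a 10x Genomics 3' library of live ZSGreen-positive cells sorted from female C57BL6/J mice that were 8 weeks old when injected and of genotype Cdh5Cre-ERT2:ZSGreenl/s/l. All mice received tamoxifen, which turns on ZSGreen through a Cre driven by the endothelial Cdh5 promoter. The TEC library came from tumors of EO771, a mammary tumor line of the same strain, about 3 weeks after injection into the mammary fat pad, and the NEC library came from normal mammary glands. The labels call the cells tumor (TEC) and normal (NEC) endothelial cells and do not say how many mice were pooled.

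The table held 1000 TEC cells with 16444540 unique molecular identifiers (UMIs, counts of single captured transcripts) and 1806 NEC cells with 5228289 UMIs. Lymphocytes had a median of 9321 UMIs in TEC and 2837 UMIs in NEC. Endothelial markers led in 6 TEC cells and 3 NEC cells only, so the sorted label does not describe most cells of this table. Shares of cells given here are shares of this table and may differ from those of all sorted cells. Transcripts of macrophages and monocytes were present in 95.2% of TEC lymphocytes at 689 counts per 1000000 UMIs (CPM), against 13.2% and 55.7 CPM in NEC lymphocytes, and their part in the differences below was not tested. Of that list of 15 genes, 12 had counts in TEC lymphocytes and 8 in NEC lymphocytes, with C1qa, C1qb and C1qc at 0 by the choice of cells. Of the mast cell and basophil list 2 genes are in the table: Gata2 was at 0 in the lymphocytes of both libraries, and Hdc had 8 UMIs in TEC lymphocytes (7.94% of cells) and 7 UMIs in NEC lymphocytes (1.10%). The libraries shared 2 cell barcodes, which were lymphocytes in NEC and macrophages in TEC. That pair held 6 Ramp3 UMIs in NEC and no UMI of the other 6 genes there. With 1 library per group no test between conditions is possible, and the 95% intervals below cover counting error only.

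The 7 genes lie on 5 chromosomes of the mouse genome (GRCm38, the assembly also named mm10, with GENCODE gene models). Il5 spans chr11:53720794-53725106 on the plus strand, Areg chr5:91139599-91148432 on the plus strand, Calca chr7:114631478-114636357 on the minus strand and Ramp3 chr11:6658521-6677475 on the plus strand. Gata3 spans chr2:9857078-9890034 on the minus strand, Rora chr9:68653786-69388246 on the plus strand and Hlf chr11:90336536-90390895 on the minus strand. Because the library reads 3' ends and counts whole genes, Calca counts do not separate the CGRP transcript from the calcitonin transcript of the same gene.

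The 250 bases before the annotated start were read from RefSeq (GRCm38.p6) for all 7 genes and searched on both strands for a GATA word (AGATAA as well as AGATAG, and likewise TGATAA together with TGATAG), the cyclic AMP response element TGACGTCA, the ROR element TAGGTCA and the D-box words TTACGTAA and TTATGTAA bound by HLF and its relatives. The 4 promoters of the secreted products and of Hlf that hold a match are shown because the results in single cells below turn on these genes. The RefSeq start can differ from the gene model above: the Gata3 window, chr2:9878601-9878850, lies inside the span given for Gata3, and those of Ramp3 and Hlf are slightly shifted. Capitals mark the match, and each sequence runs 5′ to 3′ on the strand of its gene. Il5 is at chr11:53720544-53720793 on the plus strand, Calca at chr7:114636358-114636607 on the minus strand, Areg at chr5:91139349-91139598 on the plus strand and Hlf at chr11:90390918-90391167 on the minus strand.
Il5: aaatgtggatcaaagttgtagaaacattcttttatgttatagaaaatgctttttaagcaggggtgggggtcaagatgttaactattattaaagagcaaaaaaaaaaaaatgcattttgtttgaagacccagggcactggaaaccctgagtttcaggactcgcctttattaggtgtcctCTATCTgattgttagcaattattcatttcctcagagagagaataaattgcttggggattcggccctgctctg
Calca: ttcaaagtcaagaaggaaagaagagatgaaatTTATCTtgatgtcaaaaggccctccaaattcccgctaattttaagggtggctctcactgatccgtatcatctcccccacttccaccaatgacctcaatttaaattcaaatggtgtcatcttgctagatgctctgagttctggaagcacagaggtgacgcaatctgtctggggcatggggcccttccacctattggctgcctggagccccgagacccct
Areg: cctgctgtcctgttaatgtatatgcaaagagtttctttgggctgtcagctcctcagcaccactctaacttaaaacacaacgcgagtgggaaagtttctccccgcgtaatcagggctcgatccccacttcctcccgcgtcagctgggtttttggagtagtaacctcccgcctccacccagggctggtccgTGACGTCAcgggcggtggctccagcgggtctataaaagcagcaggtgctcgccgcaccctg
Hlf: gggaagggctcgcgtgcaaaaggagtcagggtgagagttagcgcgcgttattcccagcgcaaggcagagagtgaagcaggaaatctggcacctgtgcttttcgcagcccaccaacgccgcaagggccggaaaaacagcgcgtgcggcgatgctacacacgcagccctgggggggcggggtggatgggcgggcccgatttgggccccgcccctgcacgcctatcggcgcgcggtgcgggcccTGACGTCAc

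The GATA word lay on the reverse strand in Il5, at bases -72 to -67 from the start, and in Calca, at bases -218 to -213. Rora also held a GATA word, at bases -38 to -33. Such words occurred in 26.5% of 32851 promoters of this length, so they are common words. The full cyclic AMP element stood in Areg at bases -61 to -54 and in Hlf at bases -9 to -2, and 1.55% of all promoters held it. Neither Ramp3 nor Gata3 held any of these words in these windows, and none of the 7 held the ROR element (2.23% of all promoters) or a D-box word (0.931%). A match is a description of letters and not of binding.

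Il5, Calca and Hlf were counted in NEC lymphocytes and are listed at 0 in the TEC library. The TEC table had no cell under 6376 UMIs. The NEC holders had totals of 2589 to 5071 UMIs for Il5 and 1991 to 5355 UMIs for Hlf, all below that. Calca holders had 1168 to 9660 UMIs, with a median of 2736. The part of this difference in cell totals in the values of 0 was not tested. Every gene counted in TEC was counted in at least 5 cells, so a gene listed at 0 may have been held by fewer, and no fold is given for these 3 genes. The other 4 genes were counted in both libraries. Among them Areg was higher per UMI in TEC lymphocytes, while Ramp3, Gata3 and Rora had ratios below 1 that did not reach a 2-fold difference.

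Il5 encodes the cytokine that sustains eosinophils. It was held by 5 of 637 NEC lymphocytes (0.785%, 0.255 to 1.82%), which carried 13, 8, 6, 3 and 1 UMIs of it. No NEC cell of another group held an Il5 UMI. All of the Il5 signal therefore came from 5 cells, and the strongest of them held 13 of the 31 UMIs.

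Areg encodes amphiregulin, an EGF receptor ligand used in tissue repair. In TEC it was held by 15 of 63 lymphocytes, with 1, 4 and 19 UMIs in the lowest, median and highest holder, and in NEC by 36 of 637 lymphocytes, with 1, 2 and 14 UMIs. Summed levels were 118 CPM in TEC (94.2 to 145) and 51.6 CPM in NEC (42.0 to 62.8), a ratio of 2.28 (1.69 to 3.06). After thinning to 1000 UMIs per cell, 8.50% of TEC lymphocytes and 3.41% of NEC lymphocytes would be expected to hold it, against 23.8% and 5.65% as counted. Of all 4443 genes compared, 25.1% met the same rule in the higher direction (a ratio of at least 2 with an interval that excludes 1) and 12.5% in the lower direction. Areg was the only member called, so 1 of 4 is close to the share of all genes. The TEC library held no large group that should lack Areg: it lay at 72.1 CPM in fibroblasts, 85.4 CPM in cells marked by Rhox5 and 112 CPM in macrophages or monocytes, and the part of free RNA in the TEC level and in this ratio was not tested.

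Calca was held by 24 NEC lymphocytes (3.77%, 2.43 to 5.55%) with 62 UMIs in all. The 5 highest holders had 14, 7, 6, 5 and 4 UMIs, a further 6 cells had 2 or 3, and 13 had a single UMI. As a measure of free RNA, 4 of 645 NEC B cells (0.620%) and 1 of 305 NEC macrophages or monocytes (0.328%) also held a Calca UMI, at median depths of 1756 and 3192 UMIs. The share in lymphocytes lay above both. The highest of these B cells held 2 Calca UMIs, so 1 or 2 UMIs in a given cell cannot be told apart from this background.

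Ramp3 encodes an accessory protein that turns CALCRL into a receptor for adrenomedullin and related peptides. It was the most widespread of the 7 genes, held by 35 of 63 TEC lymphocytes (55.6%) and 333 of 637 NEC lymphocytes (52.3%), with a median of 3 UMIs in TEC holders and 2 UMIs in NEC holders. The similar shares came from unequal depths, and thinning to 1000 UMIs gave 18.3% in TEC and 29.7% in NEC. Per UMI the level was 229.7 CPM in TEC (197 to 267) and 448 CPM in NEC (419 to 479), a ratio of 0.512 (0.432 to 0.604), just short of 2-fold. NEC B cells held it in 0.620% of cells.

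Gata3 and Rora encode the transcription factors named above. Gata3 had 30 UMIs in 17 TEC lymphocytes and 121 UMIs in 69 NEC lymphocytes, which is 40.1 CPM in TEC (27.0 to 57.2) and 62.4 CPM in NEC (51.8 to 74.6), a ratio of 0.642 (0.415 to 0.964). Rora had 83 UMIs in 30 TEC lymphocytes and 292 UMIs in 131 NEC lymphocytes, or 111 CPM and 151 CPM, a ratio of 0.736 (0.569 to 0.942). Thinned shares were near each other, at 4.26% in TEC and 5.21% in NEC for Gata3 and at 11.6% in TEC and 10.6% in NEC for Rora. Among NEC B cells 0.310% held Gata3 and 0.155% held Rora.

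Hlf encodes a PAR bZIP transcription factor known from blood stem cells and circadian output. It was held by 14 NEC lymphocytes (2.20%, 1.21 to 3.66%), of which 8 had 1 UMI and the highest had 4. Outside lymphocytes it was counted in 2 of 31 NEC epithelial cells, in 1 of 305 NEC macrophages or monocytes and in 0 of 645 NEC B cells.

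**Figure D1:**
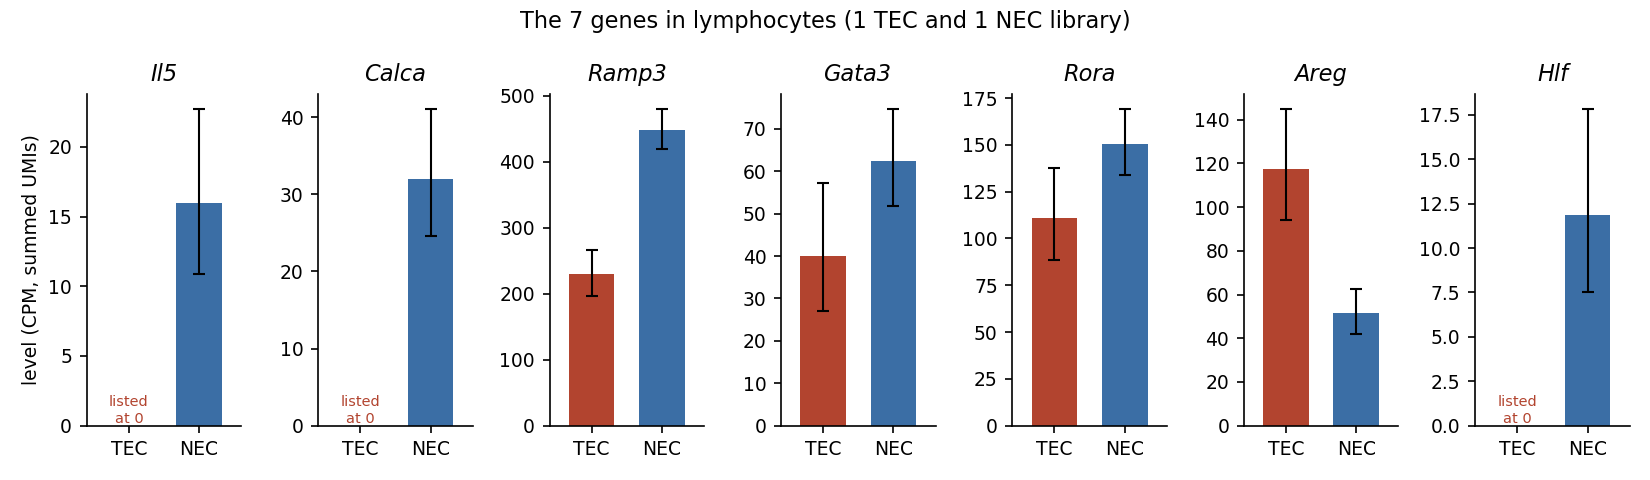
Summed level of each gene in lymphocytes in CPM, TEC bar left of NEC bar, with exact Poisson 95% intervals and a separate linear axis for each gene. Areg stands higher in TEC at 118 CPM against 51.6 CPM in NEC, Ramp3 is the most abundant gene in both libraries, and Il5, Calca and Hlf are listed at 0 in TEC.

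The choice of cells moved these ratios. A scaling that trims extreme genes (TMM-type) shifted all log2 ratios by -0.44, and under it 600 genes were higher and 934 lower in TEC lymphocytes, against 1115 and 557 with total UMIs. With that scaling the Areg ratio was 1.68, no longer past 2-fold, while Ramp3 at 0.378 and Gata3 at 0.474 were past 2-fold in the lower direction and Rora was at 0.543. When cells with a UMI of Lyz2, Csf1r, Cd79b or Ms4a1 were also left out, 18 TEC and 579 NEC lymphocytes remained, and Gata3 turned to 1.24, Ramp3 came to 0.805 and Areg stayed at 2.47. With cells of at least 4000 UMIs only, Gata3 was at 1.35 and Areg at 5.0.

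Just outside the gate were cells whose lymphocyte genes led but which held a Cd79a or C1q UMI, 9 in TEC and 21 in NEC. The 9 TEC cells held 17 Gata3, 29 Rora, 12 Areg and 11 Ramp3 UMIs. The 21 NEC cells held 28 Ramp3, 9 Rora and 1 Areg UMIs and no UMI of the other 4 genes.

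Most lymphocytes that held these genes also held Cd3d, Cd3e or Cd3g, so the name innate lymphoid does not describe these holders as a group. Cd3 UMIs also counted toward the choice of lymphocytes, which favored cells with Cd3. The shares with Cd3 are therefore in part set by that choice. Among NEC lymphocytes, 4 of 5 Il5 holders, 19 of 24 Calca holders, 13 of 14 Hlf holders, 28 of 36 Areg holders, 59 of 69 Gata3 holders, 112 of 131 Rora holders and 322 of 333 Ramp3 holders had a Cd3 UMI. Cells of other groups also held Cd3 UMIs. In TEC these were 19.2% of cells marked by Rhox5 at a median depth of 43932 UMIs, 14.4% of macrophages or monocytes at 7727 and 13.2% of dendritic cells at 7812. In NEC they were 2.17% of B cells at a median depth of 1756 UMIs, 3.61% of macrophages or monocytes at 3192, 5.48% of fibroblasts at 2745 and 24.4% of dendritic cells at 3175.

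The share without a Cd3 UMI still differed between the genes. In NEC it was 22.2% of Areg holders (10.1 to 39.2%), 20.8% of Calca holders (7.13 to 42.2%), 14.5% of Gata3 holders (7.17 to 25%) and 14.5% of Rora holders (8.96 to 21.7%), against 6.59% of all NEC lymphocytes (4.79 to 8.81%). The intervals of Calca and Gata3 holders overlapped that of all NEC lymphocytes. Ramp3 holders lay on the other side, with 3.30% (1.66 to 5.83%) against 10.2% of lymphocytes without Ramp3 (7.03 to 14.2%). Il5 had 1 such cell of 5 and Hlf had 1 of 14, with intervals too wide to place them. A cell of this depth without a Cd3 UMI may still express Cd3: thinned to 1000 UMIs, 25.8% of all NEC lymphocytes would lack one, and 39.5% of Areg holders. The thinned shares were 32.4% for Calca, 32.8% for Gata3, 33.0% for Rora and 22.1% for Ramp3 holders.

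TEC holders without a Cd3 UMI were 1 of 30 for Rora (3.33%, 0.0844 to 17.2%), 3 of 17 for Gata3, 3 of 15 for Areg and 8 of 35 for Ramp3, against 15 of all 63 TEC lymphocytes (23.8%, 14.0 to 36.2%). Only 1 TEC cell without Cd3 held Rora, whereas 19 of 42 such NEC cells did.

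**Figure D2:**
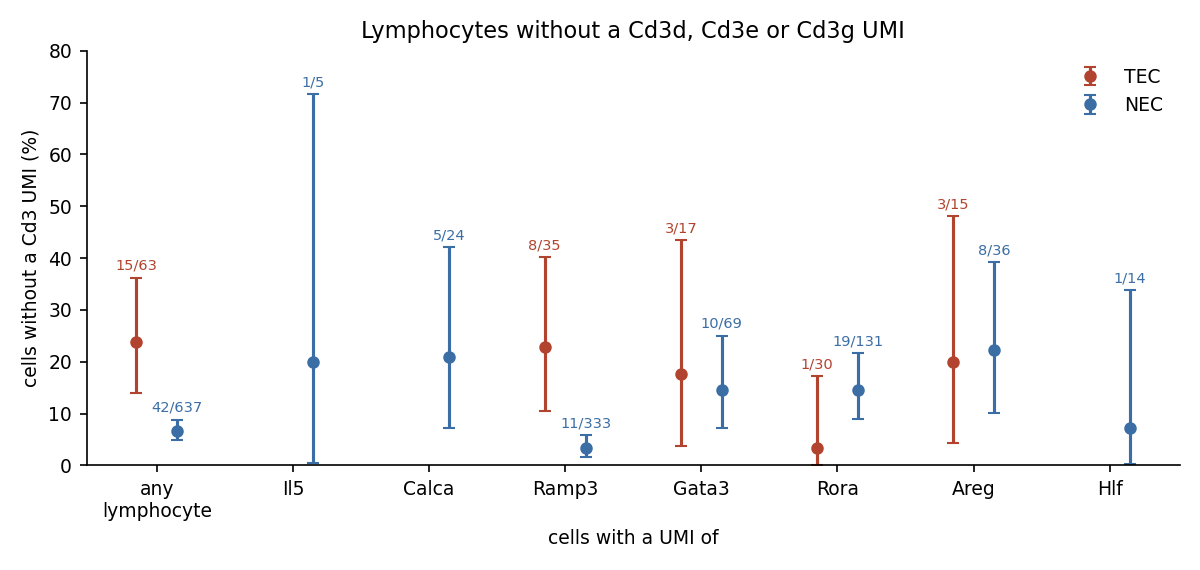
Percent of lymphocytes without a Cd3d, Cd3e or Cd3g UMI among the holders of each gene, TEC left of NEC, with exact binomial 95% intervals and the number of cells above each point. In NEC the Areg and Calca holders stand at 22.2% and 20.8%, above the 6.59% of all lymphocytes, and Ramp3 holders at 3.30%.

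Among lymphocytes without Cd3, Rora and Gata3 were, of the 4 members counted in both libraries, those whose levels lay farthest apart between the libraries. In TEC, 15 such cells had 1 Rora UMI and 4 Gata3 UMIs, against 48 Rora UMIs and 20 Gata3 UMIs in 42 NEC cells, although the TEC cells were deeper (median 9018 UMIs, against 1991 UMIs in NEC). Per UMI this is 6.66 CPM of Rora in TEC (0.169 to 37.1) and 476 CPM in NEC (351 to 631). The TEC cells held granzyme A (Gzma), a cytotoxic granule enzyme, at 5747 CPM and the NK receptor gene Ncr1 in 6 of 15 cells. Their 863 Gzma UMIs lay in 8 cells, with 333 of them in 1 cell. In the NEC cells Gzma was at 337 CPM, with 34 UMIs in 5 cells. Eomes, another gene of NK cells, ran the other way, at 13.3 CPM in TEC (2 UMIs) and 79.3 CPM in NEC (8 UMIs). Areg, at 180 CPM in TEC and 188 CPM in NEC, and Ramp3, at 306 and 347 CPM, had intervals that overlapped between these 2 sets of cells.

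Within NEC, the 42 lymphocytes without Cd3 had Rora at 476 CPM, Gata3 at 198 CPM, Areg at 188 CPM and Calca at 129 CPM, against 133, 55.0, 44.1 and 26.7 CPM in the 595 with Cd3. Arg1 and Kit, both found in ILC2s and other innate cells, had 19 UMIs in 4 cells and 12 UMIs in 8 cells without Cd3, and 2 UMIs each among the 595 cells with Cd3. A single cell held 13 of those 19 Arg1 UMIs. Genes of NK and cytotoxic cells were higher without Cd3 too: Nkg7 at 377 against 88.7 CPM, Gzma at 337 against 20.7 and Eomes at 79.3 against 10.3. Icos, also found in ILC2s, was at 119 CPM without Cd3 and 129 CPM with it. Il1rl1, the IL-33 receptor gene, was held by 3 of the 42 cells and by 14 of the 595. Most of the 17 NEC cells with Il1rl1 therefore carried Cd3 as well.

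In cells with Cd3 the comparison of TEC with NEC gave Ramp3 at 210.5 and 454 CPM (ratio 0.464, 0.381 to 0.560), Areg at 102 and 44.1 CPM (2.31, 1.63 to 3.26), Rora at 137 and 133 CPM (1.03, 0.793 to 1.33) and Gata3 at 43.4 and 55.0 CPM (0.790, 0.493 to 1.23). The ratios of Rora and Gata3 were thus closer to 1 in this subset than over all lymphocytes, and that of Ramp3 passed 2-fold. In NEC cells with Cd3, Areg was at 4.86 CPM where Cd8a or Cd8b1 was counted without Cd4 (224 cells), at 112 CPM where Cd4 was counted without Cd8 (38 cells) and at 71.6 CPM where neither was counted (332 cells). Il5 and Hlf had no UMI in the 224 cells with Cd8, and Calca had none in the 38 cells with Cd4.

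Cell by cell, the 5 Il5 holders were alike in many of these genes but not in T cell genes. All 5 held Gata3, Rora, Areg and Il1rl1, 4 held Hlf and 3 held Ramp3. Their Cd3 UMIs ran from 0 to 17, and 2 of the 5, both with Cd3, held 1 UMI of Cd4 each. The cell with the most Il5 had 13 UMIs of it, 2 of Gata3, 1 of Rora, 3 of Areg, 2 of Hlf and 5 of Cd3. The next had 8 Il5, 3 Gata3, 5 Rora, 7 Areg and 1 Hlf UMIs with 4 of Cd3. The single Il5 holder without Cd3 had 1 Il5 UMI beside 8 of Gata3, 6 of Areg, 3 of Calca, 2 of Il1rl1 and 1 each of Rora, Klrg1, Kit and Arg1. It was also the only cell with both Il5 and Calca.

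Calca holders differed in the other genes they held. The cell with 14 Calca UMIs held 9 of Ramp3, 4 of Areg, 1 of Gata3, none of Rora and 9 of Cd3. The cell with 7 held 14 of Ramp3, 7 of Rora, 3 of Areg, 6 of Cd3 and 1 of Il17a, the cytokine gene of type 17 lymphocytes. All 5 cells with at least 4 Calca UMIs held Ramp3, 4 of them held Rora and 4 held Cd3. Among the 11 cells with at least 2 UMIs, 5 had no Cd3 UMI, and 1 of these 5 was instead marked by 11 UMIs of Nkg7 and 3 of Gzma. The 13 cells with 1 UMI all had Cd3, and 3 of them held Cd8a. The cell with Nkg7 and Gzma held 2 Calca UMIs, and 1 or 2 UMIs cannot be told apart from the background given above.

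Pairs of the genes were set beside the number expected if each cell kept its depth and the genes were held independently. In NEC, 14 of 15 pairs without Ramp3 were above that number. Il5 and Hlf met in 4 cells (0.132 expected), Il5 and Areg in 5 (0.338 expected), Areg and Hlf in 8 (0.944 expected) and Rora and Areg in 25 (8.63 expected). Gata3 and Rora met in 33 cells (16.4 expected), and Calca met Areg in 7 (1.61 expected) and Rora in 13 (5.76 expected).

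Calca and Hlf were the exception, with 0 shared cells and 0.631 expected, too few to read anything from. The 6 pairs with Ramp3 ran from 0.850 to 1.35 times the expected number. A gene that 52.3% of NEC lymphocytes hold has little room to exceed expectation in such counts. Calca and Ramp3, a peptide gene and a peptide receptor partner, met in 16 cells (14.0 expected). In TEC, where 4 of the genes were counted, the 6 pairs ran from 0.580 to 1.22 times the expected number. Gata3 and Rora met there in 11 cells (9.03 expected) and Rora and Areg in 7 (8.02 expected).

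**Figure D3:**
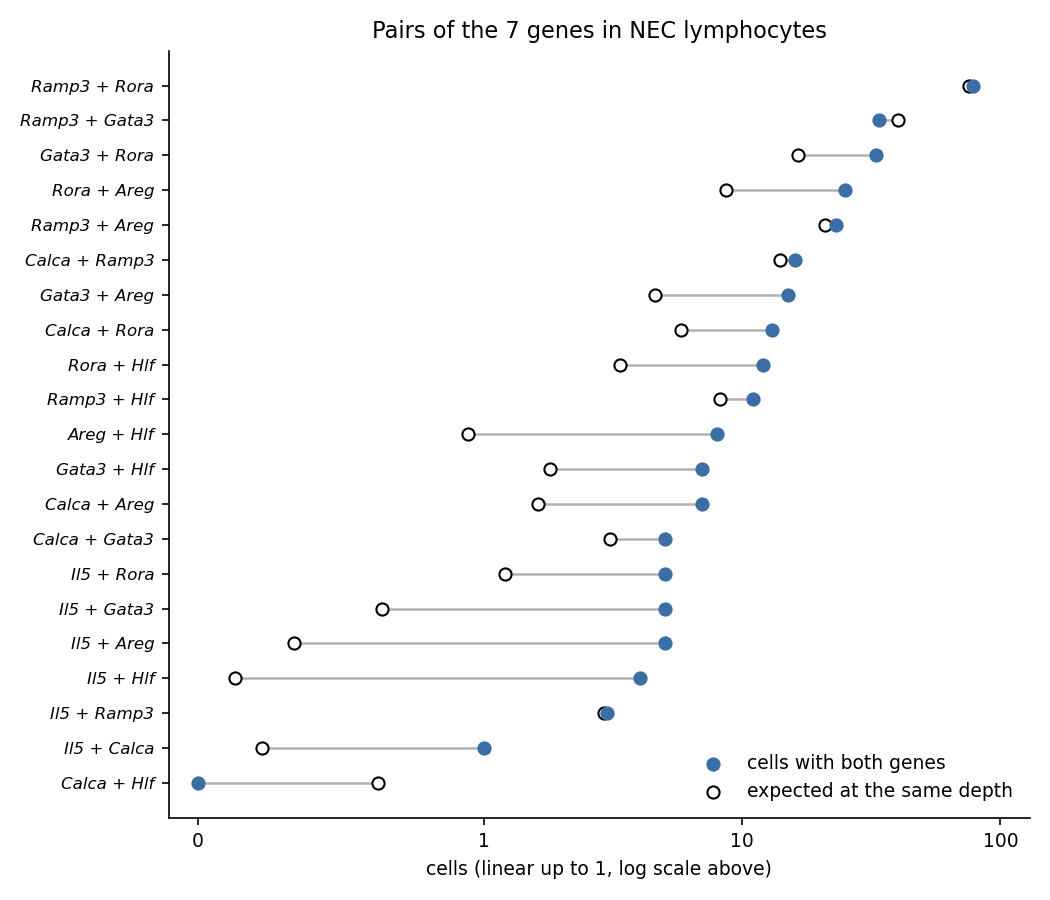
Number of NEC lymphocytes with both genes of each pair (filled points) and the number expected at the same depths (open points), on an axis linear up to 1 and logarithmic above. Pairs of Il5, Hlf, Areg, Gata3 and Rora lie above expectation, those with Ramp3 lie near it, and Calca with Hlf is at 0.

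At least 3 of the 7 genes were held by 8 TEC lymphocytes, all with a Cd3 UMI, and by 42 NEC lymphocytes, of which 8 (19.0%) had none. No cell held all 7, and the 3 NEC cells with 6 of them were Il5 holders with Cd3.

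The 28 NEC lymphocytes with Il5 or Calca were then compared with the other 609 over all genes, as a description of cells that these genes had picked. Of 3237 genes, 5.93% were at least 2-fold higher in the holders and 1.33% at least 2-fold lower, with an interval that excludes 1. Among the members that did not define the cells, Areg was at 532 CPM in holders and 27.6 CPM in the others (19.3-fold, 12.7 to 29.1), Rora at 695 and 124 CPM (5.63-fold, 4.20 to 7.46), Gata3 at 239 and 53.6 CPM (4.46-fold, 2.67 to 7.13) and Ramp3 at 967 and 423 CPM (2.29-fold, 1.82 to 2.85). All 4 met the rule. The members were chosen for being held together, so this adds nothing to the pairs above.

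The other leading genes were Pxdc1 (21.5-fold, 12.3 to 37.8), Cxcr6 (14.7-fold, 9.57 to 22.4), Lgals3 (13.0-fold, 9.73 to 17.2), Furin (10.1-fold, 6.95 to 14.6) and Samd11 (10.0-fold, 5.94 to 16.5). Cxcr6 encodes a chemokine receptor of tissue-resident lymphocytes, Lgals3 encodes galectin-3 and Furin encodes a convertase that cuts proproteins. Bcl2a1b at 9.76-fold and Bcl2a1d at 7.29-fold encode survival proteins from near-identical gene copies, and how reads were split between the copies is uncertain. Lmo4, a transcriptional cofactor, was 6.88-fold higher and Cstb, a protease inhibitor, 6.10-fold. Cxcr6 was held by 15 of 28 holders (53.6%) and by 29 of 609 others (4.76%).

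The Il5 and the Calca holders, taken apart by the same rule, led with partly separate genes. In the 5 Il5 holders Furin was 33.5-fold higher than in other NEC lymphocytes (21.7 to 50.4), Areg 34.2-fold (20.5 to 55.2), Phlda1 22.9-fold (13.98 to 36.1) and Id2, a regulator needed by all innate lymphoid cells, 13.1-fold (9.50 to 17.8), and all 5 cells held Furin and Id2. In the 24 Calca holders Lgals3 led at 14.2-fold (10.7 to 18.9), with Pxdc1 at 17.9-fold (10.1 to 31.4) and Samd11 at 11.9-fold (7.07 to 19.7). Among the members, Hlf was held by 4 of 5 Il5 holders and 0 of 24 Calca holders, and Gata3 by 5 of 5 Il5 holders and 5 of 24 Calca holders. Only 0.631 cells with both Calca and Hlf were expected, so nothing can be read from that 0. Of the 24 Calca holders 13 had a single Calca UMI, which cannot be told apart from the background given above. Ramp3 was held by 3 of 5 Il5 holders and 16 of 24 Calca holders. Its level was at 0.664 times the level of other cells in the Il5 holders (0.215 to 1.55), a value that rests on 5 UMIs, and at 2.55 times in the Calca holders (2.01 to 3.2).

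Lists of related genes were read in the same cells. The shares over all genes were those above, 5.93% higher and 1.33% lower. Of 11 lymphoid transcription factors with enough counts, 6 were higher in holders (Gata3, Rora, Id2, Nfil3, Tox and Maf) and 0 lower, and the list had a median log2 ratio of 1.40 against 0.00 over all genes. Gata3 and Rora are members chosen for being held with Il5 and Calca, so the count is not independent of that choice. Of 10 receptors and identity genes of ILC2s, 3 were higher (Icos, Il18r1 and Cxcr6) and 2 lower (S1pr1, the exit receptor for blood and lymph, and Cd69). Of 11 T cell genes, Cd8b1 and Lck were lower and none higher, with a median log2 ratio of -0.27. Both genes of the CGRP list with enough counts were higher, Ramp3 as above and Ramp1 at 3.05-fold (1.51 to 5.62).

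The same lists were compared between TEC and NEC lymphocytes. Of 12 ILC2 receptor and identity genes, Il2ra (7.38-fold, 4.71 to 11.9) and Klrg1 (7.76-fold, 4.06 to 15.9) were higher in TEC, and those lower included S1pr1 (0.0597, 0.0307 to 0.105) and Cd69 (0.422, 0.308 to 0.567). Of 12 transcription factors, Id2 (2.70-fold) and Ikzf2 (4.82-fold) were higher and Bcl11b (0.343), Tcf7 (0.136) and Ets1 (0.374) lower. The medians of these lists were 0.38 and 0.12 on the log2 scale, and the median of all 4443 genes was 0.30. With the TMM-type scaling Id2 was at 1.99, just under 2-fold, and the other 8 genes named kept their call.

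Il2ra, Klrg1, Id2 and Ikzf2 are also genes of regulatory T or NK cells. Of 8 regulatory T cell genes, 6 were higher and 1 lower in TEC, and of 8 genes of NK and other innate lymphoid cells 7 were higher, with Gzma at 1398 CPM in TEC and 37.2 CPM in NEC. These counts stand beside 25.1% higher and 12.5% lower over all genes compared. Of 12 T cell genes 1 was higher (Cd8a) and 1 lower (Cd28), and with the TMM-type scaling Cd3d at 0.458 and Cd247 at 0.435 were lower as well. Of 4 circadian genes compared, Bhlhe40 was higher and Per1 lower, and with that scaling Cry1 at 0.467 was also lower. Tmem176a of the NK and innate lymphoid list was then at 1.91, under 2-fold.

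The receptor side of CGRP was thin in lymphocytes. Calcrl, the shared receptor, had 2 UMIs in 63 TEC lymphocytes and 6 UMIs in 637 NEC lymphocytes. Ramp1, its partner for CGRP, had 15 UMIs in TEC and 91 UMIs in NEC (47.0 CPM in NEC, ratio of TEC over NEC 0.427, 0.229 to 0.741), and Crcp, a receptor component that is also a subunit of RNA polymerase III, at 46.7 and 18.6 CPM (2.52, 1.53 to 4.12). These 2 genes met the rule among the 3 compared in this list, the third being Ramp3, and with the TMM-type scaling Crcp was at 1.86. Among NEC macrophages or monocytes Ramp1 was at 105 CPM, above its level in lymphocytes, and Ramp3 at 50.3 CPM, below it.

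Areg and Ramp3 were also counted outside lymphocytes, and their changes between the libraries ran in different directions by cell group. Ramp3 was higher in TEC in dendritic cells and in macrophages or monocytes. Areg was higher in TEC in dendritic cells, and in macrophages or monocytes its ratio lay below 1 without reaching 2-fold.

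Dendritic cells of TEC had the highest Ramp3 level of any group with at least 20 cells. There Ramp3 had 550 UMIs in 46 of 53 cells, at 1090.4 CPM (1001 to 1185), and in NEC 25 UMIs in 13 of 41 cells, at 149 CPM (96.3 to 220), a ratio of 7.33 (4.91 to 11.4). Thinned to 1000 UMIs, 57.4% of TEC and 12.1% of NEC dendritic cells would hold it. Nearly all of it sat in cells with at least 2 UMIs of Ccr7, Ccl22 and Fscn1, genes of mature migratory dendritic cells. These had 548 UMIs in 47 TEC cells (1218 CPM) and 24 UMIs in 37 NEC cells (162 CPM). Ccr7, Ccl22 and Fscn1 were also among the markers that defined the group, so most of its cells met this by the choice of cells. The few others had 2 Ramp3 UMIs in 6 TEC cells (36.7 CPM) and 1 in 4 NEC cells (49.5 CPM). Of 1508 genes compared in dendritic cells, 16.2% were higher in TEC and 5.24% lower.

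Areg had 107 UMIs in 17 of 53 TEC dendritic cells, at 212 CPM (174 to 256), and 0 UMIs in 41 NEC dendritic cells. With the NEC sum of 0 set to 3 counts the ratio was 11.9, a value set by that floor. The highest TEC cell held 27 of the 107 UMIs, and the median depths were 7812 UMIs in TEC and 3175 UMIs in NEC. Cd3 UMIs were present in 13.2% of these TEC cells and 24.4% of the NEC cells.

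In macrophages or monocytes Ramp3 had 890 UMIs in 269 of 661 TEC cells, at 148 CPM (139 to 159), and 61 UMIs in 41 of 305 NEC cells, at 50.3 CPM (38.5 to 64.6), a ratio of 2.95 (2.27 to 3.89). The share of all 7153 genes that were higher in TEC macrophages or monocytes was 22.7%, and 6.08% were lower. Ramp3 was at 149 CPM in the 95 TEC cells with a Cd3 UMI and at 148 CPM in the 566 without, whereas Rora was at 73.8 CPM in the cells with Cd3 and 5.67 CPM in those without.

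Areg had 669 UMIs in 145 of 661 TEC macrophages or monocytes and 167 UMIs in 53 of 305 NEC cells, at 112 CPM (103 to 120) and 138 CPM (118 to 160), a ratio of 0.810 (0.683 to 0.966). Cells without C1q had the larger summed level in each library. In TEC, Areg was at 138 CPM in 441 cells without a C1q UMI and 67.7 CPM in 220 with one, and in NEC at 163 CPM in 203 without and 69.4 CPM in 102 with. In TEC, 1 cell held 72 of the 515 Areg UMIs in cells without C1q. The share of TEC cells with an Areg UMI did not follow this order, at 21.8% without C1q and 22.3% with. In NEC these shares were 21.7% and 8.82%. The summed level of Ramp3 was also larger without C1q, at 175 and 104 CPM in TEC and at 62.4 and 18.1 CPM in NEC.

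Of the UMIs of Areg, lymphocytes held 5.42% in TEC and 35.6% in NEC, and macrophages or monocytes 41.2% and 59.4%. A further 39.0% of the TEC total sat in 146 cells marked by Rhox5, a reproductive homeobox gene, which occurred in TEC only. Those cells held Areg at 85.4 CPM (78.9 to 92.3) with a UMI in 94 of 146, at a median depth of 43932 UMIs, and Ramp3 at 12.1 CPM. In TEC fibroblasts Areg had 53 UMIs in 8 of 22 cells, of which 28 came from 1 cell. NEC B cells, taken here as a measure of free RNA, had Areg and Ramp3 at 3.78 CPM each. That measure may not hold for other groups: Cd3 UMIs were in 2.17% of NEC B cells and 24.4% of NEC dendritic cells.

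**Figure D4:**
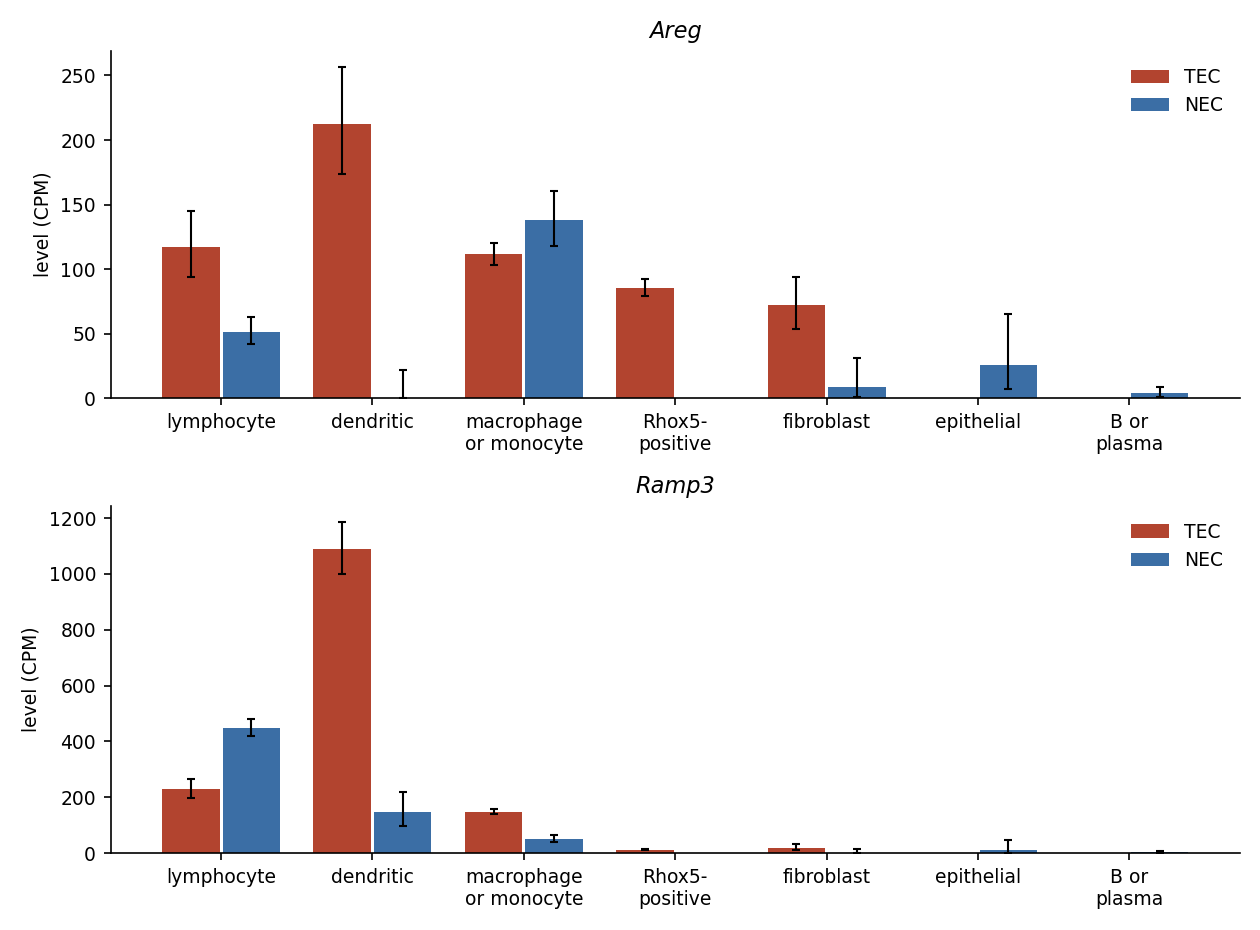
Level of Areg (top) and Ramp3 (bottom) in CPM by cell group for groups with at least 20 cells in a library, TEC bars left of NEC bars, with exact Poisson 95% intervals. Ramp3 peaks in TEC dendritic cells at 1090.4 CPM, and Areg is spread over dendritic cells, lymphocytes, macrophages or monocytes, Rhox5-marked cells and fibroblasts of TEC.

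Ramp3 in TEC was split between macrophages or monocytes (50.4% of its UMIs), dendritic cells (31.2%) and lymphocytes (9.75%), while in NEC 87.0% of its UMIs were in lymphocytes. Gata3 and Rora were counted in epithelial cells too, as is known of the luminal mammary gland for Gata3: 35 Gata3 UMIs in 12 of 31 NEC epithelial cells at 222 CPM (155 to 309), and 17 Rora UMIs in 12 of 31 at 108 CPM. NEC fibroblasts held Rora at 109 CPM. Gata3 per UMI in NEC epithelial cells thus stood above that in the lymphocytes of either library.

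**Figure D5:**
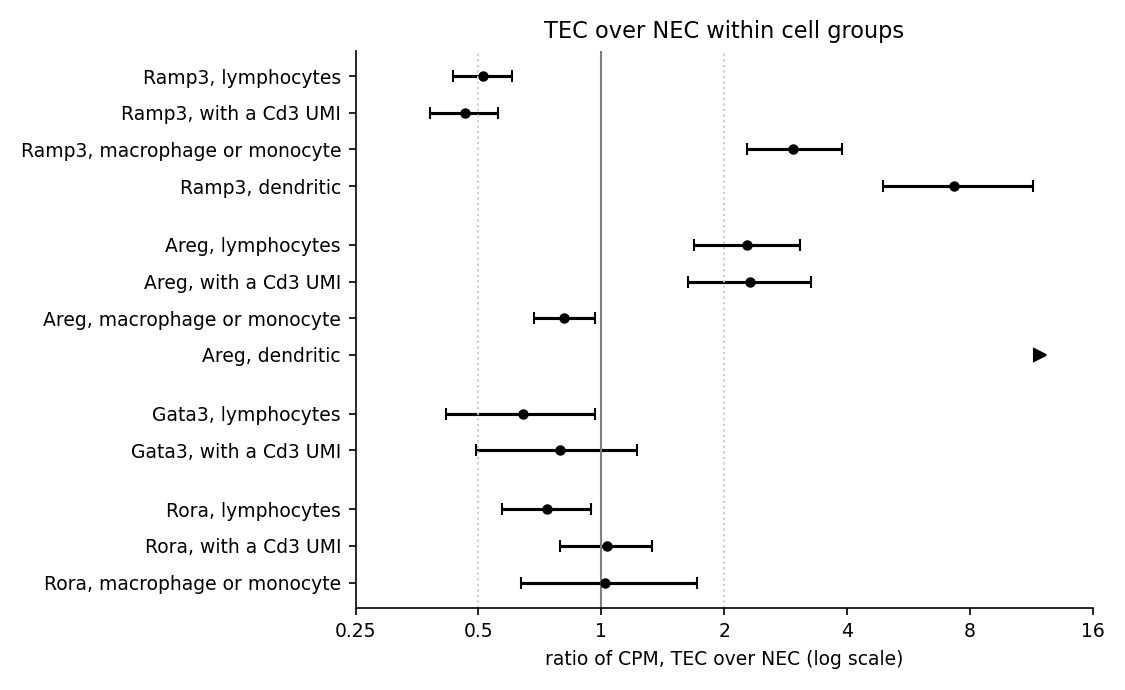
Ratio of CPM in TEC over NEC on a log axis for the 4 genes counted in both libraries, within cell groups where they had at least 50 UMIs, with exact 95% intervals, dotted lines at 2-fold in either direction and an arrowhead for a lower bound. Ramp3 lies below 1 in lymphocytes (0.512) and above 2 in macrophages or monocytes (2.95) and dendritic cells (7.33).

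Over the 13 sums of library and cell group with at least 20 cells, the gene most like each member in log2(CPM + 10) was found as a description. For Ramp3 it was Il7r (r = 0.909), for Areg Ccnd3 (0.901), for Gata3 Gabbr1 (0.866), for Rora 1190002N15Rik (0.873) and for Hlf Rbak (0.858), with Gata3 next at 0.846. Il5 was nearest to Calca (0.975), and both were near 0 outside the NEC lymphocytes, so this r rests on 1 sum. Calca was nearest to Gm20069 among genes with at least 50 UMIs (0.856).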

How the data were processed

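The authors deposited 1 table of raw UMI counts, with a row for each gene and a column for each cell. Cells named "tumor" were taken as TEC and cells named "control" as NEC, the second by that word alone. The tools in the submitters' processing notes are Cell Ranger 2.0.2, STAR 2.5.1b and Seurat, with genome build mm10 (settings not given in the sources used here). A cell was retained if it had 1000 or more UMIs in 500 or more genes, no more than 10% of them mitochondrial. This filter left out 0 TEC and 5 NEC cells. Scrublet (scanpy 1.11.5) removed 3 TEC and 7 NEC cells as doublets.

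Each cell went to the marker panel with the most UMIs (at least 2, ties unassigned). UMIs were summed per library and group as CPM with exact Poisson intervals. Shares have exact Clopper-Pearson intervals and ratios an exact interval conditional on the gene total, for genes with at least 50 UMIs over both sums. A gene was called at a ratio of 2 or more either way with an interval that excludes 1. A sum of 0 was set to 3 counts, except for genes listed at 0 in a whole library. Thinned shares are the expected shares at 1000 UMIs per cell. The calling rule was tested on simulated data. Python 3.11.15, numpy 2.4.6, scipy 1.17.1 and pandas 2.3.3 were used.

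The members, the gene lists and the rules were chosen with earlier results of these data known. Named genes are the 7 members, genes of the lists, and for Il5 or Calca holders the 12 genes with the highest lower bound among those with at least 20 UMIs in the holders and a UMI in at least 20% of them, Calca itself included. The same rule named genes for Il5 and Calca holders taken apart, of which those given were picked after their values were seen, as were the genes given to describe cells without Cd3. Cell groups were rebuilt from markers.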

Additional observations from a re-analysis of the deposited data

Results flagged for a closer look

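Areg and Ramp3 are listed because their TEC over NEC ratios pointed in different directions in different cell groups; with 1 library per group these differences between cell groups were not tested. The ratio of Areg was 11.9 as a lower bound in dendritic cells, 2.28 in lymphocytes and 0.810 in macrophages or monocytes. The ratio of Ramp3 was 7.33 in dendritic cells, 2.95 in macrophages or monocytes and 0.512 in lymphocytes. Every interval lay to 1 side of a ratio of 1.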

How the results depend on the processing

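No paired analysis was possible because each group has 1 library and no replicate numbers are shared. Over 15 alternatives, 459 values other than the leading ones were recomputed. Of these, 366 stayed within their counting interval or, for counts of cells, within a fixed fold. A further 90 moved by more, 31 of them when any cell without Cd79a and C1q counts was taken as a lymphocyte, and 3 changed direction. Gata3 turned to 1.35 with at least 4000 UMIs per cell and to 1.24 without cells that held Lyz2, Cd79b, Ms4a1 or Csf1r, and Ramp3 turned to 0.664 with Il5 holders alone.

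With at least 4000 UMIs per cell, 2.42% of NEC lymphocytes and 0% of Il5 holders lacked Cd3, shared cells were 2 for Calca and Rora, 0 for Il5 and Calca and 1 for Il5 and Hlf, 47 genes were higher and 12 lower in holders, and 202 genes were lower in TEC lymphocytes. With any cell without Cd79a and C1q counts, 40.1% lacked Cd3, 2.39% held Calca, 206 genes were lower in holders, and 2521 genes were higher and 1019 lower in TEC. Without cells with Lyz2, Cd79b, Ms4a1 or Csf1r, Il5 and Hlf shared 2 cells, and 538 genes were higher and 293 lower in TEC. TMM-type scaling gave 600 higher and 934 lower, against 1115 and 557 with total UMIs, and no minimum of UMIs gave 2500 higher. Il5 holders alone gave 21 lower genes, against 43. Counting only Calca holders with at least 2 UMIs, chosen after seeing the data, gave 1.73% of NEC lymphocytes, 45.5% of holders without Cd3 and 8 cells shared with Rora. Without its highest cell, Areg in TEC macrophages or monocytes was at 99.8 CPM. The causes were not tested. Leaving out the shared barcodes, keeping Scrublet calls or dropping the cell filter moved none of the values recomputed. The alternative with T cell receptor constant genes was not run because those genes are not in the table used here. No value could be checked in a second animal or library.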
